A study of Mus musculus with 6 samples.

Results

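Macrophages and microglia were followed in the newborn mouse eye through 32 genes of this lineage, out of 12393 genes measured on the arrays. A gene was included where at least 1 probe set, the group of short probes that reads a transcript, named that gene alone, and where several did, the brightest by mean log2 intensity over all 6 arrays stood for the gene. The list was divided into 6 genes of resident tissue macrophages (Csf1r, Cx3cr1, Mrc1, Stab1, Pf4 and F13a1) and 26 others, called leukocyte and activated genes here. Most of the 26 mark leukocytes in general or activated macrophages, but Cd163, Trem2, Adgre1, Aif1 and Spi1 among them also mark macrophages or microglia as a lineage. RNA came from whole eyeballs at postnatal day 1, 3 of wild-type pups and 3 of pups with conditional deletion of Brg1 (Brg1 cKO), with 1 array per eyeball. Brg1, encoded by Smarca4, is the catalytic subunit of SWI/SNF complexes, which move nucleosomes along DNA.

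The Brg1 cKO pups carried homozygous floxed Brg1 alleles and a heterozygous Le-Cre transgene. Le-Cre is active in the head surface ectoderm that forms the lens, the corneal epithelium and the eyelid epidermis, so macrophages, which come from other lineages, are not its target. The deletion was not complete in every lens by the study's own account, and deletion in the germline occurred at times. Controls are labelled wild type, and the methods call them littermates of the same stage. Elsewhere the study uses floxed pups without Cre as controls, so from the labels alone it is not certain whether these 3 carried floxed alleles. No eyeball with Le-Cre and intact Brg1 alleles was analysed here, so in these arrays effects of the transgene and of Brg1 loss cannot be told apart. The study reports that Le-Cre mice did not differ in phenotype from wild type. Samples are called biological replicates, and the sources used here do not name litters, dissection days or the pup that each eyeball came from.

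Tissue macrophages, including the microglia of the retina and the hyalocytes and vessel-associated macrophages of the vitreous, settle in the eye before birth and depend on the receptor Csf1r. They engulf dying cells, remodel the transient vessels behind the lens and carry receptors for sugars, modified proteins and antibodies. Monocytes and neutrophils enter from blood when tissue is damaged, and they share with resident macrophages the integrins, Fc receptors and cytoskeletal proteins of all leukocytes. The level of a transcript in a whole eyeball therefore joins cell number and RNA content per cell, and more cells of a type and more RNA per cell cannot be told apart.

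Promoter sequence shows what the resident and the activated genes have in common before their levels are compared. Myeloid promoters often hold the PU box, with the core GAGGAA, the sequence bound by PU.1, the product of Spi1, which is itself a gene of the list. RefSeq promoters of build GRCm38.p6, from 250 bases before to 50 bases after a transcript start, were found for 23 of the 32 genes in 28 windows. The core was present on either strand in 17 of these windows (60.7%), against 28.3% of all 32851 promoter windows. It was found in 4 of the 5 resident genes and in 11 of the 18 other genes with a sequence. Both classes thus held it, and over all 27025 genes the share was 31.3%. The windows of Fcgr3 overlap and hold the same site, which the window share counts more than once. The match describes letters only, and its absence says nothing about the factor.

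The 100 bases before the start are given for 3 genes that rose in Brg1 cKO eyeballs (Fcgr1, Lgals3 and Mpeg1) and for 3 resident genes that did not pass the test (Mrc1, Pf4 and Cx3cr1), 5′ to 3′ on the strand of the gene, with the PU box core in capitals. In these 3 promoters with a core the capitals spell its reverse complement, since the core lies on the other strand.
Fcgr1 (chr3:96293970-96294069, minus strand): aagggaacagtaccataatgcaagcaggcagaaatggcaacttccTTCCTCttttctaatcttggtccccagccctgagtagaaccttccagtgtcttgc
Lgals3 (chr14:47373760-47373859, plus strand): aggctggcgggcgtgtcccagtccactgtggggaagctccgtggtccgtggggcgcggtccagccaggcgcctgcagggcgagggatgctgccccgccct
Mpeg1 (chr19:12460670-12460769, plus strand): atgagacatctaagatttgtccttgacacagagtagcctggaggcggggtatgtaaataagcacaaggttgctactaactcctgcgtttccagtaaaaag
Mrc1 (chr2:14229314-14229413, plus strand): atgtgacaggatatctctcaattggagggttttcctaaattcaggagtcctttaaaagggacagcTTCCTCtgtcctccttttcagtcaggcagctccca
Pf4 (chr5:90772335-90772434, plus strand): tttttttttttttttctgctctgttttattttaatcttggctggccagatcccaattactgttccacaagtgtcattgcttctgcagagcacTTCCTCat
Cx3cr1 (chr9:120068297-120068396, minus strand): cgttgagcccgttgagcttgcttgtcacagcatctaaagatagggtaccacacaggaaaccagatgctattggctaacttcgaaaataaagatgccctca
The core lay 55 bases before the start in Fcgr1, 35 in Mrc1 and 8 in Pf4, and it was in neither strand of the stretches of Lgals3, Mpeg1 and Cx3cr1.

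Values are log2 intensities normalized by RMA, the robust multichip average, and differences are Brg1 cKO minus wild type on that scale with the standard error (SE) of the limma model. Probe sets differ in brightness for reasons other than RNA amount, so levels were compared between arrays and never between genes. Levels under log2 4.84, the 25th percentile of all values, are called the low end of the scale, where folds are understated. Each array was evenly bright, with median intensities of 169 to 185. Lens, cornea, retina and pigment genes were well measured (Rpe65 was dim), and Krt12, the keratin of corneal epithelium, fell from 9.40 to 5.70 (adjusted p = 0.00194). Lens and stroma genes were also lower in every Brg1 cKO eyeball without passing the test, with Mip, the lens fiber water channel, at 12.47 and 9.96 (adjusted p = 0.0618), Cryaa at 13.97 and 12.70 (adjusted p = 0.221) and Kera at 10.58 and 9.57 (adjusted p = 0.397). The summed intensity of the 10 eye tissue genes was 58261 to 60204 in wild type and 27657 to 44613 in Brg1 cKO, so the make-up of the RNA differed between the genotypes, and its part in the macrophage results was not tested. Brg1 cKO replicate 1 was the only male eyeball (Xist at 4.88, against 12.30 to 12.92 elsewhere), and the extraocular muscle genes were highest within their genotype in wild-type replicate 3 and Brg1 cKO replicate 2, with median shifts of 0.84 and 0.79.

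Most leukocyte and activated genes read higher in all Brg1 cKO eyeballs than in any wild-type eyeball, whereas among the resident genes only Csf1r did. Of the 32 genes, 5 rose at an adjusted p under 0.05, namely Itgb2, Lgals3, Mpeg1, Fcgr1 and Cd52, and 0 fell. All 5 were among the 26 leukocyte and activated genes, and the background was 53 of 12393 genes higher at that threshold (0.428%). At an unadjusted p under 0.05 with a fold over 1.5, 21 of the 26 and 1 of the 6 resident genes were higher, against 4.45% of all genes. In 22 of the 32 genes all Brg1 cKO values lay above all wild-type values, as they did in 8.46% of all genes. The median difference was 1.41 over the 26 genes, 0.16 over the resident genes and 0.02 over all genes measured.

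**Figure D1:**
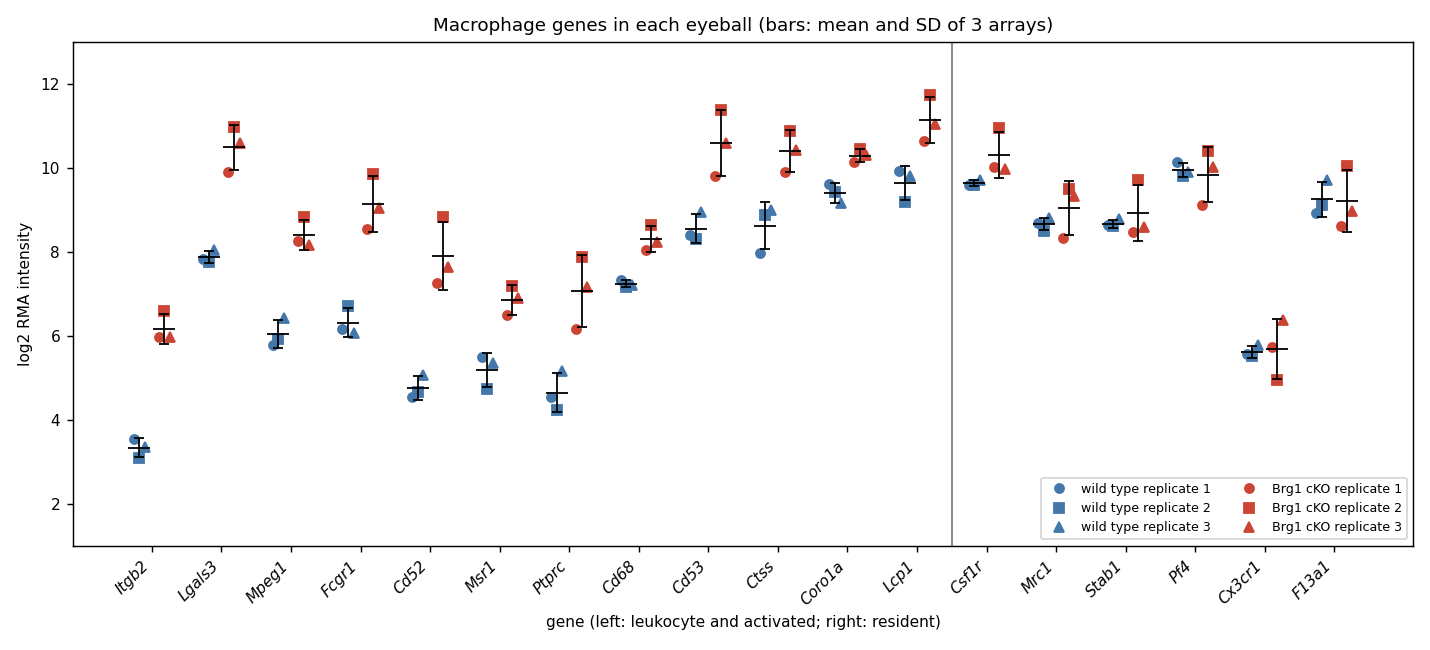
Log2 RMA intensity (vertical axis) in each eyeball for the 12 leukocyte and activated genes with the smallest p (left of the grey line) and the 6 resident genes (right), with points for replicates 1 to 3 of each genotype, dashes for means and bars for the SD of 3 arrays. On the left the Brg1 cKO points lie above the wild-type points for all 12 genes, and on the right this holds for Csf1r alone.

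Surface molecules and the cytoskeleton of all leukocytes formed the largest class, with 8 genes, of which 2 rose. Itgb2 encodes the β2 integrin chain CD18, which leukocytes need to stick to vessel walls and to bind complement. Its intensity was 3.54, 3.09 and 3.36 for wild-type replicates 1 to 3, against 5.97, 6.58 and 5.96 for replicates 1 to 3 of Brg1 cKO. The difference was 2.84 (SE 0.24, 7.16-fold, adjusted p = 0.00495), with all wild-type values below the low end of the scale. Cd52, a small glycosylated surface peptide of lymphocytes and monocytes, read 4.53, 4.67 and 5.07 in wild-type eyeballs, against 7.26, 8.82 and 7.63 in Brg1 cKO. The groups were far apart, by 3.15 (SE 0.40, 8.86-fold, adjusted p = 0.0248), the largest difference of the 32 genes, and wild type again sat at the low end.

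The other 6 members of this class lay in the same direction without passing the adjusted test. Ptprc, the phosphatase CD45 of all nucleated blood cells, was at 4.55, 4.23 and 5.16 in wild-type eyeballs, with their mean at the low end. In Brg1 cKO it was at 6.16, 7.88 and 7.16 (difference 2.42, SE 0.45, adjusted p = 0.0990). Cd53, a leukocyte tetraspanin, was at 8.40, 8.31 and 8.94 against 9.81, 11.36 and 10.60 (difference 2.04, SE 0.39, adjusted p = 0.112). Both genes separated the groups without overlap, with the lowest Brg1 cKO value in replicate 1, and both passed when that replicate was left out (adjusted p = 0.0328 for Ptprc and 0.0406 for Cd53). Lcp1, the actin-bundling L-plastin, was at 9.93, 9.17 and 9.81 against 10.64, 11.73 and 11.04 (2.83-fold, adjusted p = 0.170). Coro1a, an actin regulator of leukocytes, was at 9.61, 9.42 and 9.16 against 10.13, 10.45 and 10.29 (difference 0.89, SE 0.19, adjusted p = 0.160), the narrowest spread among Brg1 cKO eyeballs in this class. Laptm5, a lysosomal membrane protein of blood cells, averaged 9.53 ± 0.43 in wild type and 10.86 ± 0.73 in Brg1 cKO (SD, n = 3, adjusted p = 0.359). Itgam, the CD11b chain that pairs with Itgb2, was below the low end in all 6 arrays (3.16 ± 0.31 and 3.27 ± 0.30, SD, n = 3), so its probe set carries no information on the pair.

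Receptors that signal through ITAM motifs, the tyrosine motifs that activate phagocytes, had 5 genes and 1 that rose. Fcgr1, the high-affinity receptor for immunoglobulin G, read 6.17, 6.71 and 6.06 in wild-type eyeballs, against 8.53, 9.86 and 9.04 in Brg1 cKO. Every Brg1 cKO eyeball exceeded every wild-type eyeball by a wide margin, with a difference of 2.83 (SE 0.36, 7.11-fold, adjusted p = 0.0248). The adaptors that carry the signal were less far apart, and neither passed: Tyrobp averaged 7.92 ± 0.36 and 9.58 ± 0.81 (difference 1.66, SE 0.41, adjusted p = 0.228) and Fcer1g 7.71 ± 0.25 and 8.86 ± 0.70 (difference 1.15, SE 0.35, adjusted p = 0.391). Fcgr3, a lower-affinity Fc receptor with near-identical relatives, overlapped between the groups (8.51 ± 0.53 and 9.55 ± 0.70, adjusted p = 0.546). Trem2, a lipid receptor of microglia and macrophages that uses Tyrobp, differed by 0.43 (SE 0.20, adjusted p = 0.664). Its second probe set, which differed by -0.03, was below the low end in all arrays and carries no information.

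Lysosomal and phagocyte genes had 5 members, of which 2 rose, and all 5 were higher at an unadjusted p under 0.05 with a fold over 1.5. Lgals3 encodes galectin-3, a lectin made by activated macrophages and also by epithelia, the corneal epithelium among them. It read 7.82, 7.76 and 8.04 in wild-type eyeballs, against 9.90, 10.97 and 10.58 in Brg1 cKO, a difference of 2.61 (SE 0.28, 6.11-fold, adjusted p = 0.0164). Mpeg1, perforin-2, a pore-forming protein of macrophages, read 5.77, 5.93 and 6.42 against 8.25, 8.82 and 8.15, a difference of 2.37 (SE 0.26, 5.15-fold, adjusted p = 0.0169). In both genes the lowest Brg1 cKO eyeball stood well above the highest wild-type eyeball.

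The remaining genes of this class separated the groups by smaller steps. Ctss, the macrophage protease cathepsin S, was at 7.97, 8.88 and 9.0 in wild-type eyeballs, against 9.90, 10.88 and 10.41 in Brg1 cKO (difference 1.78, SE 0.35, adjusted p = 0.126). Cd68, a glycoprotein of the macrophage lysosome, was at 7.33, 7.17 and 7.22 against 8.03, 8.64 and 8.24 (difference 1.06, SE 0.20, adjusted p = 0.112). Its wild-type eyeballs were among the most alike of any gene in the list, with an SD of 0.08. Lyz2, lysozyme M of macrophages and neutrophils, averaged 8.20 ± 0.16 and 9.32 ± 0.64 (SD, n = 3, adjusted p = 0.322). Ncf4 and Cybb are parts of the NADPH oxidase that makes superoxide. Ncf4 averaged 4.65 ± 0.65 and 6.66 ± 0.81 (difference 2.01, SE 0.47, adjusted p = 0.203), with the wild-type mean at the low end. Cybb was below the low end in all arrays. Cd86, a costimulatory ligand for T cells induced on activated macrophages, averaged 3.40 ± 0.37 and 5.28 ± 0.99 (difference 1.88, SE 0.48, adjusted p = 0.246), with wild type at the low end.

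Scavenger receptors were split. Msr1, a receptor for modified lipoproteins, read 5.49, 4.73 and 5.36 in wild-type eyeballs, against 6.48, 7.18 and 6.91 in Brg1 cKO (difference 1.66, SE 0.28, adjusted p = 0.0647), and its 3 other probe sets were also higher, by 0.47 to 1.54. Cd163, the haemoglobin receptor of resident-type macrophages, was at 7.17, 7.04 and 8.30 against 6.13, 8.89 and 7.56, a difference of 0.02 (SE 0.68, adjusted p = 0.998). Cd163 varied most of all within Brg1 cKO, where replicate 1 gave the lowest and replicate 2 the highest value of the 6 arrays. It was counted with the leukocyte and activated genes, although its difference was as small as those of most resident genes.

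Mrc1, the mannose receptor CD206 of resident macrophages, was at 8.69, 8.51 and 8.80 in wild-type eyeballs, and at 8.32, 9.49 and 9.32 in Brg1 cKO. Brg1 cKO replicate 1 lay below all wild-type eyeballs and the other 2 above them, and the difference of 0.38 had a 95% interval of -0.37 to 1.12 (adjusted p = 0.823). Stab1, stabilin-1, which clears modified proteins in macrophages and in some endothelium, was at 8.63, 8.60 and 8.77 against 8.47, 9.70 and 8.60. Only Brg1 cKO replicate 2 stood out, and the difference was 0.25 (interval -0.52 to 1.02, adjusted p = 0.891).

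The lineage genes were likewise divided. Csf1r, the receptor that keeps macrophages alive, was at 9.60, 9.59 and 9.71 in wild-type eyeballs, and at 10.02, 10.95 and 9.96 in Brg1 cKO. It was the only resident gene with all Brg1 cKO values on top, and its difference was 0.68 (SE 0.28, interval 0.01 to 1.34, adjusted p = 0.588). Cx3cr1, the fractalkine receptor of microglia, was at 5.56, 5.51 and 5.78 against 5.74, 4.94 and 6.37. The Brg1 cKO values lay on both sides of wild type, with replicate 2 lowest, and the difference was 0.07 (interval -0.75 to 0.88, adjusted p = 0.976). Aif1, the calcium-binding protein Iba1 used to stain microglia, averaged 6.44 ± 0.50 and 7.61 ± 0.40 (difference 1.17, SE 0.31, adjusted p = 0.282). Spi1, the gene of PU.1, averaged 4.94 ± 0.25 and 5.68 ± 0.37 (difference 0.74, adjusted p = 0.437), and Adgre1, a surface receptor that marks mouse macrophages, differed by 0.57 (SE 0.31, adjusted p = 0.708).

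The last 2 resident genes encode secreted or intracellular products rather than receptors. Pf4, the chemokine platelet factor 4, is made by megakaryocytes and by tissue macrophages, and it was at 10.13, 9.81 and 9.89 in wild-type eyeballs, against 9.11, 10.39 and 10.02 in Brg1 cKO. F13a1, the transglutaminase that crosslinks fibrin, was at 8.92, 9.11 and 9.71 against 8.61, 10.04 and 8.98. In both genes the 3 Brg1 cKO eyeballs enclosed the wild-type range, with replicate 1 lowest and replicate 2 highest. Pf4 differed by -0.11 (interval -0.87 to 0.66, adjusted p = 0.958) and F13a1 by -0.04 (interval -0.96 to 0.89, adjusted p = 0.988). These intervals leave room for a rise or a fall, so the resident genes are not shown to be equal in both genotypes.

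**Figure D2:**
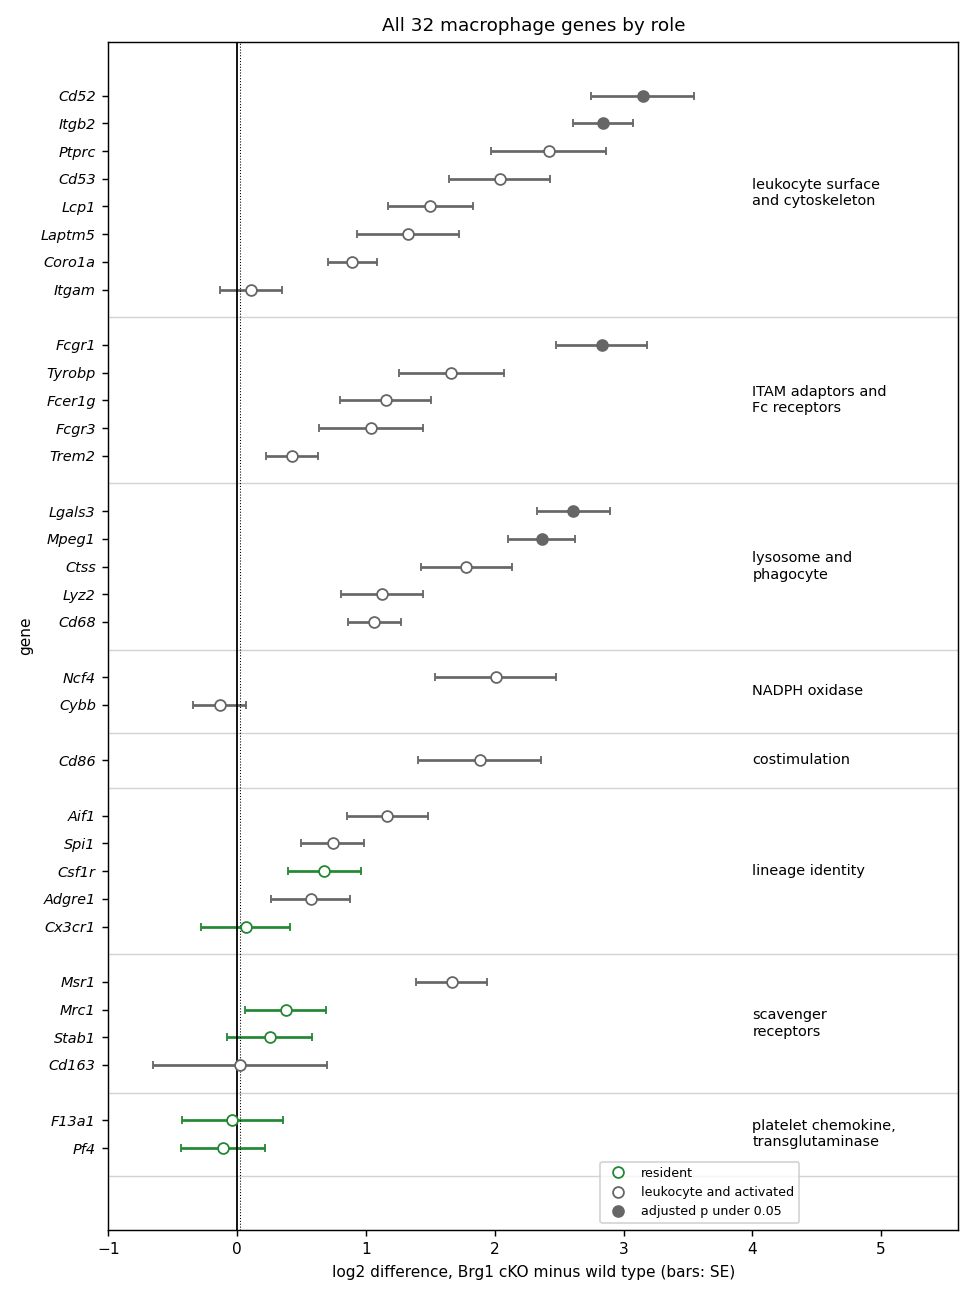
Difference in log2 intensity, Brg1 cKO minus wild type (horizontal axis, bars 1 SE), of all 32 genes grouped by role, with resident genes in green and genes past the adjusted test filled. The 5 filled genes lie between 2.37 and 3.15, and 5 of the 6 resident genes lie between -0.11 and 0.38.

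The separation of the classes was visible inside each Brg1 cKO eyeball. The shift of a class is the median, over its genes, of how far an array lies from the mean of wild type (a wild-type array was set against the other wild-type arrays). The leukocyte and activated genes had shifts of 0.98, 2.04 and 1.24 in replicates 1 to 3 of Brg1 cKO, and the resident genes of -0.27, 0.81 and 0.20. Both classes thus followed the same order of eyeballs, with replicate 2 highest in 28 and replicate 1 lowest in 23 of the 32 genes. The gap between the classes was steadier than either shift, at 1.26, 1.23 and 1.04 in Brg1 cKO against -0.14, -0.02 and 0.29 in wild type. Over the groups the medians stood 1.25 apart, which is 2.38-fold. Since the members were chosen with results known, this gap is a description and has no test.

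The summed intensity of the 26 leukocyte and activated genes was 4726 to 6268 in wild type and 10721 to 23030 in Brg1 cKO, without overlap. That of the 6 resident genes was 3020 to 3567 in wild type and 2708 to 5947 in Brg1 cKO, so that Brg1 cKO eyeballs lay on both sides. Sums are dominated by the brightest probe sets and weigh genes unequally, whereas the medians weigh them alike.

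The genes passing the adjusted test changed with the array left out, whereas the direction of the class did not. Each such run also rests on fewer arrays, and the 2 effects were not told apart. Without Brg1 cKO replicate 2, the highest array, the same 5 genes passed, beside 0.629% of all genes, and the class medians were 1.07 for the leukocyte and activated genes and 0.01 for the resident genes. Without Brg1 cKO replicate 1, the male, the 5 genes passed together with Ptprc and Cd53, and the gap was 1.25. Itgb2 alone passed whichever array was left out. Lgals3 lost the call when any wild-type array or Brg1 cKO replicate 3 was left out (adjusted p = 0.0755 to 0.0982), as did Fcgr1 (0.0856 to 0.153) and Cd52 (0.0900 to 0.153). Mpeg1 lost it without wild-type replicate 1 (0.0924) or 2 (0.0922). The count of genes passing was then 1 without wild-type replicate 1 or 2 and 2 without wild-type replicate 3 or Brg1 cKO replicate 3. Among the runs with an array left out, the share of all genes was computed without Brg1 cKO replicate 2 only. Permuting the 6 values of a gene in an exact test, two-sided, gave p = 0.1 for each of the 5 genes, the smallest that 3 against 3 allows.

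Other probe sets of the same genes mostly pointed the same way, though some were at the low end of the scale. For 8 of the 32 genes 13 further probe sets were measured, of which 12 were higher in Brg1 cKO and 0 passed the adjusted test. The 4 probe sets of Msr1 and both of Lcp1 were higher, and the second set of Lcp1 differed by 1.84 (adjusted p = 0.0905). The Msr1 set with the smallest difference, 0.47, was below the low end in all arrays. So was the second set of Cd86, which differed by 0.36, against 1.88 for the brighter one. For Csf1r the 2 dimmer sets differed by 0.33 and 0.46. The second set of Cx3cr1 was at the low end and tells nothing about the receptor.

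Other genes of the myeloid pathway were described from lists of cell type and activation markers. Among 11 measured genes of phagocyte activation 2 rose, Cd14, the co-receptor for bacterial lipopolysaccharide, from 4.41 to 10.33 (difference 5.92, SE 0.55, adjusted p = 0.00824), and Itgax, the integrin CD11c, from 3.49 to 5.20 (difference 1.71, SE 0.23, adjusted p = 0.0288). Clec7a, the β-glucan receptor dectin-1, averaged 3.35 and 7.07 (adjusted p = 0.0861). The lysosomal protease gene Ctsb, abundant in most tissues, differed by 0.44 (adjusted p = 0.670). The median of the 11 genes was 0.50, below the values of these few.

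Of 15 genes for growth factors, recruiting chemokines and their receptors, 0 passed the adjusted test and 10 had a higher mean in Brg1 cKO. At an unadjusted p under 0.05 with a fold over 1.5, 9 were higher, against 4.45% of all genes. At the same threshold 1 was lower, as were 353 of 12393 genes. This was Cx3cl1 (difference -0.72, SE 0.19, adjusted p = 0.280), with all Brg1 cKO values below all wild-type values. The chemokines Ccl3 and Ccl4, which draw monocytes, averaged 4.14 and 4.26 in wild-type eyeballs, against 8.37 and 8.19 in Brg1 cKO (adjusted p = 0.0813 and 0.0722). Csf3r, the receptor for granulocyte colony-stimulating factor, differed by 2.14 (SE 0.43, adjusted p = 0.127), and Tgfb1, a growth factor that microglia depend on, by 1.05 (SE 0.22, adjusted p = 0.134). Among 7 monocyte genes 0 passed, with Ccr2, the receptor monocytes use to leave the marrow, at 2.60 against 4.66 in Brg1 cKO (adjusted p = 0.198, with only Brg1 cKO replicate 2 above the low end), and Chil3 at 2.92 and 4.08.

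Markers of settled macrophages gave no call. Among 7 genes of homeostatic microglia, the resting state in the retina, 0 passed, and the named members went both ways: Fcrls differed by 1.12 (adjusted p = 0.132) and Gpr34 by 0.60 (adjusted p = 0.705), whereas P2ry12, the purinergic receptor of microglial processes, differed by -0.97 (adjusted p = 0.247) and Sall1 by -0.84 (adjusted p = 0.490). All Brg1 cKO values lay below all wild-type values in P2ry12 and Sall1, and above them in Fcrls. In P2ry12 and Sall1 the Brg1 cKO values were all at the low end of the scale, and Sall1 averaged only 4.89 in wild type. Of all 12393 genes, 791 lay wholly below and 1048 wholly above. The shifts of this list were -0.28, 0.35 and -0.02 in Brg1 cKO replicates 1 to 3, close to the wild-type range of -0.18 to 0.29. Among 10 genes of perivascular and other resident macrophages 0 passed. Of these, 6 had a higher and 4 a lower mean in Brg1 cKO. The 4 with the smallest p were the lower ones, Cbr2, a carbonyl reductase, at 8.64 against 5.86 in Brg1 cKO (difference -2.78, SE 0.54, adjusted p = 0.120), Ccl24 (difference -0.37, adjusted p = 0.646), and Folr2 and Lyve1, markers of vessel-associated macrophages (-0.58 and -0.76, adjusted p = 0.668 each). In 3 of the 10 genes, Cbr2, Ccl24 and Lyve1, all Brg1 cKO values lay below all wild-type values, and in 0 they all lay above. Ccl24 was at or near the low end in every array, with means of 4.88 in wild type and 4.51 in Brg1 cKO. The complement genes C1qa, C1qb and C1qc and the lectin gene Clec10a differed upward, by 0.38 to 0.52 (adjusted p = 0.782 to 0.827). The list's median of 0.18 was near the 0.16 of the 6 resident genes.

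Some neutrophil transcripts were higher beside the leukocyte genes. Of 15 measured neutrophil markers 3 rose, the formyl peptide receptor gene Fpr2 (difference 5.26, adjusted p = 0.00703) and the calprotectin genes S100a9 (4.55, adjusted p = 0.00935) and S100a8 (4.99, adjusted p = 0.0181), while the granule genes Elane and Mpo were below the low end in all arrays. Il1r2, an interleukin 1 receptor, differed by 3.37 (adjusted p = 0.120), with all Brg1 cKO values above all wild-type values. Csf3r, named above, is also on this list, and Hdc, Ngp, Cxcr2 and Lcn2 differed by 2.27, 1.29, 1.19 and 0.99 without passing. The granule and protease genes Camp, Mmp8, Mmp9 and Ltf differed by 0.75, 0.68, 0.79 and -0.51 and did not pass (adjusted p = 0.740 to 0.899). Of the 15 genes 12 had a higher mean in Brg1 cKO. The summed intensity of the 15 genes was 712 to 1293 in wild type and 7798 to 27417 in Brg1 cKO, most of it from S100a8 and S100a9, without which it was 422 to 798 and 975 to 5721. Shifts of the list were 0.23, 2.77 and 0.61 for replicates 1 to 3 of Brg1 cKO, in the same order of eyeballs as the leukocyte and activated genes. Itgb2, Ptprc, Cd53, Coro1a, Lcp1, Fcgr1, Lyz2 and Tyrobp can all be transcribed in neutrophils as well as in macrophages, calprotectin is also made by injured epithelium, and the part of neutrophils in the class difference was not tested.

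Lymphocyte and other blood cell markers were mostly dim. Of 10 measured T and NK cell genes, 7 were below the low end in all arrays, Cd3e among them, and 1 rose, Il7r, the interleukin 7 receptor (difference 3.27, adjusted p = 0.0181). The other 9 had overlapping sums, 137 to 161 in wild type and 138 to 180 in Brg1 cKO, and Nkg7, a granule gene of NK cells, differed by -0.75 (adjusted p = 0.480). The 4 B cell genes gave 0 calls, as did the 10 dendritic and Langerhans cell genes, where the factor gene Batf3 differed by 0.75 (adjusted p = 0.469), the antigen presentation genes H2-Eb1 by 0.77 (adjusted p = 0.549) and H2-Ab1 by 0.89 (adjusted p = 0.599), and Cd74, the invariant chain, by 1.38 (adjusted p = 0.583). Platelet markers gave 0 calls. Ppbp was at 5.35 and 7.41 (difference 2.06, adjusted p = 0.288), whereas the other measured markers differed by -0.24 to 0.22. The list's sums, 318 to 341 in wild type and 367 to 715 in Brg1 cKO, include Ppbp and were not computed without it. They do not show a rise shared by platelet genes, and the part of platelets in the level of Pf4, a platelet product, was not tested. The mast cell and basophil list was low in Brg1 cKO replicate 1 alone, with shifts of -1.88, 0.15 and -0.06 and 0 calls.

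**Figure D3:**
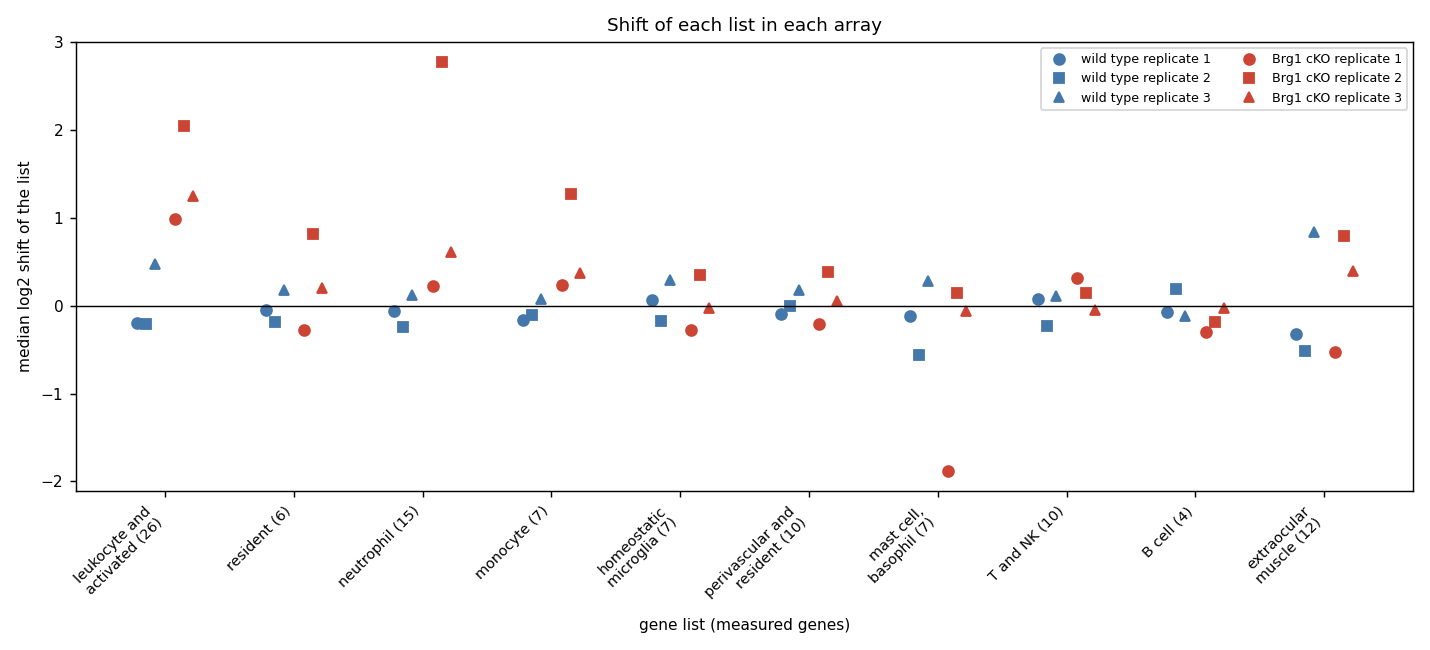
Median log2 shift (vertical axis) of each gene list in each array, relative to wild type (a wild-type array relative to the other wild-type arrays), with the number of measured genes in brackets. The leukocyte and activated genes reach 0.98 to 2.04 in Brg1 cKO, the neutrophil list 0.23 to 2.77, and the resident genes -0.27 to 0.81.

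Muscle transcripts differed between eyeballs of both genotypes, and the sources used here do not record how much muscle was left on each. The 12 extraocular muscle genes shifted by -0.32, -0.51 and 0.84 over wild-type replicates 1 to 3, and by -0.52, 0.79 and 0.40 over those of Brg1 cKO, and 23 of the 32 macrophage genes had their highest wild-type value in replicate 3. With wild-type replicate 3 and Brg1 cKO replicate 2 left out, the class medians were 1.25 for the leukocyte and activated genes and 0.07 for the resident genes, and the gap was 1.18. In that setting 3 of the 32 genes passed the adjusted test, and the share of all genes was not computed. The ratio of the 3′ to the 5′ probe sets of actin, a sign of RNA quality, was 0.93 to 1.12 in wild type and 0.98 to 1.34 in Brg1 cKO on the log2 scale, and its part in the results was not tested.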

How the data were processed

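Eyeball RNA (50 ng) was amplified with the NuGEN Ovation system per the labels, and hybridised to Affymetrix mouse arrays. The authors normalized them with RMA, version not given in the sources used here, and deposited intensity values on a linear scale, which were converted to log2 here. Of 22690 probe sets 64 array controls were left out, leaving 22626. Names came from the platform annotation, which can be old. All 32 gene identifiers were found in RefSeq (GRCm38.p6), the source of promoter sequences.

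Genotype was tested with limma 3.58.1 (R 4.3.3), two-sided with Benjamini-Hochberg adjustment over all 22626 probe sets. Intervals are 95% and come from this model. The study's selection, template matching at p under 0.05 with a fold over 1.5, was an alternative. The procedure was tested on simulated data. No detection calls were used, and 6 arrays limit the precision. The p-values cover the spread between these samples.

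Members, classes and marker lists were chosen with earlier results of these data known. Values of every array are given for the resident genes, for the 12 other genes with the smallest p, and for Cd163, chosen after its values were seen. Up to 4 genes with the smallest p are named per marker list. Further genes were chosen after their values were seen, namely the complement genes, Clec10a, Cx3cl1, Hdc, Ngp, Cxcr2, Lcn2, Camp, Mmp8, Mmp9, Ltf, Elane, Mpo and Rpe65. The genes left out of sums were also chosen after their values were seen. Muscle genes and the setting without the 2 muscle-high arrays were added after seeing the data.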

Additional observations from a re-analysis of the deposited data

How the results depend on the processing

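The count of genes passing the adjusted test, 5 of 32, was 2 with the replicate number as a block (same-numbered samples correlated at 0.06, 0.08 and 0.13, so the numbers were not taken to pair samples), 1 with log2(value + 16), and 3 without both muscle-high arrays. The gap between class medians, 1.25, was 1.04 with log2(value + 16), 1.42 with a filter on low intensity, 1.08 with array weights and 0.95 with the mean of all probe sets per gene. The causes were not tested, except that the filter removed Cybb and Itgam. No share of all genes was computed for the counts in these settings.

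Leaving out each array in turn gave 1 to 7 genes passing, 19 to 24 at the unadjusted threshold and 22 to 25 without overlap. Shares of all genes were not computed for these settings, save the 0.629% passing without Brg1 cKO replicate 2. Complete separation is easier to reach with an array fewer, so these counts are not set against 8.46%. With each array left out, medians ranged from 0.86 to 1.36 over all 32 genes. They were 1.07 to 1.62 over the leukocyte and activated genes and 0.01 to 0.37 over the resident genes, with the gap at 1.06 to 1.43. Template matching selected 18 of the 32 genes, against 2.53% of all genes.

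Genes near 0 changed sign. Cd163 (0.02) was -0.016 after repeated quantile normalization, -0.024 after centring, -0.23 with array weights and -0.26 without both muscle-high arrays, where Stab1 was -0.083. Leaving out arrays in turn gave -0.66 to 0.72 for Cd163, -0.14 to 0.48 for Stab1, -0.28 to 0.44 for Cx3cr1, -0.38 to 0.26 for Pf4, -0.45 to 0.26 for F13a1, -0.039 to 0.28 for Itgam and -0.23 to 0.045 for Cybb. With 3 arrays a group, differences of this size were within the spread between eyeballs.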
